A study of Mus musculus with 6 samples.

Results

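The receptors described here are the olfactory receptor genes of mouse chromosome 7 that lie outside the class I cluster. They were chosen by name and place alone: symbols that begin with Olfr and a number, a deposited mm9 locus on chromosome 7, and a start outside the stretch of about 4 Mb that holds the class I cluster. This gave 112 of the 1119 Olfr genes of the embryonic table, and the same 112 symbols of 1118 in the postnatal table. Another 124 Olfr genes of chromosome 7 lie inside that stretch and form the class I cluster. The nearest receptors on either side of the limits were Olfr521 (start 106915674, outside) and Olfr543 (109625287, inside) at the lower limit, and Olfr692 (112516842, inside) and Olfr693 (113821048, outside) at the upper one.

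Olfactory receptors are G protein-coupled receptors of the nasal epithelium, and a mature olfactory sensory neuron expresses chiefly one allele of one receptor gene. Class I receptors resemble those of fish and sit in one cluster on mouse chromosome 7, whereas class II receptors are the larger, land vertebrate group and sit in clusters on most chromosomes. Silent receptor genes in this tissue are known to carry repressive methylation of histones H3 and H4. G9a and GLP methylate lysine 9 of histone H3. The suv420H1 and suv420H2 enzymes methylate lysine 20 of histone H4. The series title asks for their role in olfactory receptor expression.

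Polyadenylated RNA of olfactory epithelium was sequenced from mice of mixed background, mostly C57/B6. At E18.5, late in gestation, there were 4 genotypes: heterozygous for G9a (plotted as G9a het), knockout of G9a (G9a KO), knockout of G9a and heterozygous for GLP (named G9a KO GLP heterozygote; plotted as G9a KO GLP het), and double knockout of both (G9a/GLP dKO). At postnatal day 21 there were 2: suv420H1/suv420H2 double heterozygote and suv420H1/suv420H2 double knockout, called Suv420h below (plotted as Suv420h dhet and Suv420h dKO). No wild type was among them, so every reference library also carries a mutant allele. What part of a gene was deleted, in which cells, and how many animals went into a library is not in the labels. Each genotype had 1 library, so no spread between replicates exists, no test was run, and each difference is between libraries. Values are FPKM, a level per transcript length, as deposited. The embryonic and postnatal tables were made separately, and FPKM levels are compared only within a table; ranks, counts, shares and a correlation are set side by side across the tables as descriptions.

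Some features of whole libraries touch every result below. The transcripts of the targeted genes were not reduced: Ehmt2 (G9a) was at 24.5 FPKM in the G9a heterozygote and 30.4 in the G9a/GLP double knockout, Ehmt1 (GLP) at 17.3 and 16.0, and Suv420h1 at 31.0 and 30.6 in the Suv420h double heterozygote and double knockout, which neither checks nor contradicts the labels. All 17 markers of mature olfactory neurons were detected, and their geometric mean was 20.1, 10.3, 6.91 and 9.77 FPKM in the G9a heterozygote, G9a knockout, G9a KO GLP heterozygote and the G9a/GLP double knockout, and 212 and 225 in the Suv420h double heterozygote and double knockout. Omp, the olfactory marker protein that defines these cells, was at 78.6, 36.0, 21.2 and 24.0 FPKM in the embryonic libraries in that order. Markers of some other cells moved as well. The 8 markers of sustentacular (supporting) cells, all above 0, summed to 1136, 795, 531 and 475 FPKM in the same order, and 6 of the 8 were at least 2-fold lower in the G9a/GLP double knockout than in the G9a heterozygote. The 10 markers of immature neurons summed to 691, 744, 372 and 629 FPKM, with 4 of the 10 at least 2-fold lower in the G9a KO GLP heterozygote. Nqo1 and Acsm4, the pair of dorsal zone markers, summed to 69.5, 41.3, 40.8 and 36.5 FPKM. In bulk tissue, fewer neurons and less receptor RNA per neuron cannot be told apart. Xist, transcribed from the inactive X of females, also differed: it was at 140 and 208 FPKM in the G9a knockout and the G9a/GLP double knockout and at 0.242 and 0.272 in the G9a heterozygote and the G9a KO GLP heterozygote. Ddx3y, of the Y chromosome, was at 0.0489 and 0 FPKM in the former pair and at 33.6 and 29.2 in the latter, so the sex of the animals differed between these libraries. What part any of these differences has in the receptor values was not tested.

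The 112 receptors fell into 6 clusters when a gap of over 1 Mb between starts opened a new one. From the centromere outwards these were Olfr1344 to Olfr1350 (8 members), Olfr291 to Olfr290 (2), Olfr310 to Olfr292 (15), Olfr520 to Olfr521 (2), Olfr693 to Olfr519 (66) and Olfr522 to Olfr541 (19). The large cluster from Olfr693 to Olfr519 has an inner gap of 667.3 kb, which leaves 24 receptors from Olfr693 to Olfr716 on one side and 42 from Olfr467 to Olfr519 on the other. Most deposited loci, 95 of 112, had a span that is a multiple of 3 bases and shorter than 1100 bp, as the single coding exon of a receptor has. For another 14 the span reached 1100 bp or more and holds introns or noncoding exons, so a read from those exons counts for some members and not for others.

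The class II label was checked on the translated reading frames of GENCODE M21 transcripts, which were found for all 112. The closest other receptor in sequence was another of the 112 for 103, a receptor of another chromosome for 7 and a class I cluster receptor for 2. The median identity of a member was 41.9% to receptors of other chromosomes and 30.5% to those of the class I cluster. Olfr503 and Olfr504 went against the label. Olfr503 was 93.5% identical to Olfr658 and Olfr504 92.2% identical to Olfr657, both of the class I cluster. They are kept by the rule of position, and neither reached 0.7 FPKM in any library: Olfr503 was at 0.696 FPKM in the G9a KO GLP heterozygote and Olfr504 at no more than 0.0598, in the G9a knockout.

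Similar receptors can exchange reads, which bears on several values below. Of the 112, 8 had a copy with 95% or more protein identity: Olfr707 with Olfr1532-ps1 (99.0%), Olfr290 with Olfr291 (97.8%), Olfr530 with Olfr533 (96.1%) and Olfr486 with Olfr487 (95.9%). Counted in windows of 50 bases of the reading frame, 24 members shared no window with any other receptor, and 44 shared over 10% of theirs. Olfr513 and Olfr523 shared none, Olfr510 shared 2.02%, Olfr509 1.86% and Olfr512 5.06%. Olfr530 shared 23.2%, most of it with Olfr533, and Olfr536 shared 15.9%. The stretches below, 45 coding bases at the end of the third membrane helix, are shown because they let the receptors that carry the results be told apart or not. The capitals mark the codons of the conserved aspartate, arginine and tyrosine.
Olfr509: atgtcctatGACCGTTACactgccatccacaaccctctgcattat
Olfr513: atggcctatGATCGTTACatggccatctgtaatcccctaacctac
Olfr530: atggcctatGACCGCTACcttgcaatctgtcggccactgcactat
Olfr533: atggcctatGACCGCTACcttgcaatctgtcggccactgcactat
Olfr536: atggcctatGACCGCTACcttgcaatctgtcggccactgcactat
Olfr17: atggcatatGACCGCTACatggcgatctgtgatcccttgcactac
Over these bases Olfr530, Olfr533 and Olfr536 are the same, and these bases alone cannot assign a read to one of them. Read length is not given here, and a read that reaches beyond them may differ. The stretches of Olfr509, Olfr513 and Olfr17 each differ from all the others shown.

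Fewer of the 112 receptors were detected in each embryonic library labelled as a G9a knockout than in the G9a heterozygote, and fewest in the G9a/GLP double knockout. At 0.5 FPKM or more, 39 were detected in the G9a heterozygote, 21 in the G9a knockout, 18 in the G9a KO GLP heterozygote and 7 in the G9a/GLP double knockout. These are 34.8, 18.8, 16.1 and 6.25% of the 112, and over all Olfr genes the shares were 38.2, 13.8, 14.9 and 7.95%, which also dropped. The number listed at 0 was 14, 47, 74 and 95 in the same order, or 12.5, 42.0, 66.1 and 84.8% of the 112. Over all Olfr genes these shares were 14.1, 44.6, 67.7 and 82.4%. A listing at 0 can also be a failed estimate. Summed over the 112, the level was 68.1 FPKM in the G9a heterozygote, 42.4 in the G9a knockout, 34.3 in the G9a KO GLP heterozygote and 16.7 in the double knockout. Relative to the mean of the mature neuron markers, these sums were 3.39, 4.12, 4.96 and 1.71. With this scaling the double knockout alone lay below the G9a heterozygote. Over all Olfr genes the same scaling gave 31.5, 30.2, 39.4 and 45.3, highest in the double knockout.

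The RNA was also spread over fewer members. The effective number (how many equally abundant receptors would give the same Shannon entropy) was 63.4 in the G9a heterozygote, 28.7 in the G9a knockout, 23.0 in the G9a KO GLP heterozygote and 8.68 in the double knockout, and over all Olfr genes it was 641, 274, 213 and 39.2. As a share of all Olfr FPKM the 112 held 10.8, 13.6, 12.6 and 3.78%. The class I cluster held 16.8, 12.2, 13.8 and 4.90% in the same libraries. A share falls where other receptors are high, and in the double knockout a single receptor of another chromosome, Olfr231, held 21.4% of Olfr FPKM.

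**Figure D1:**
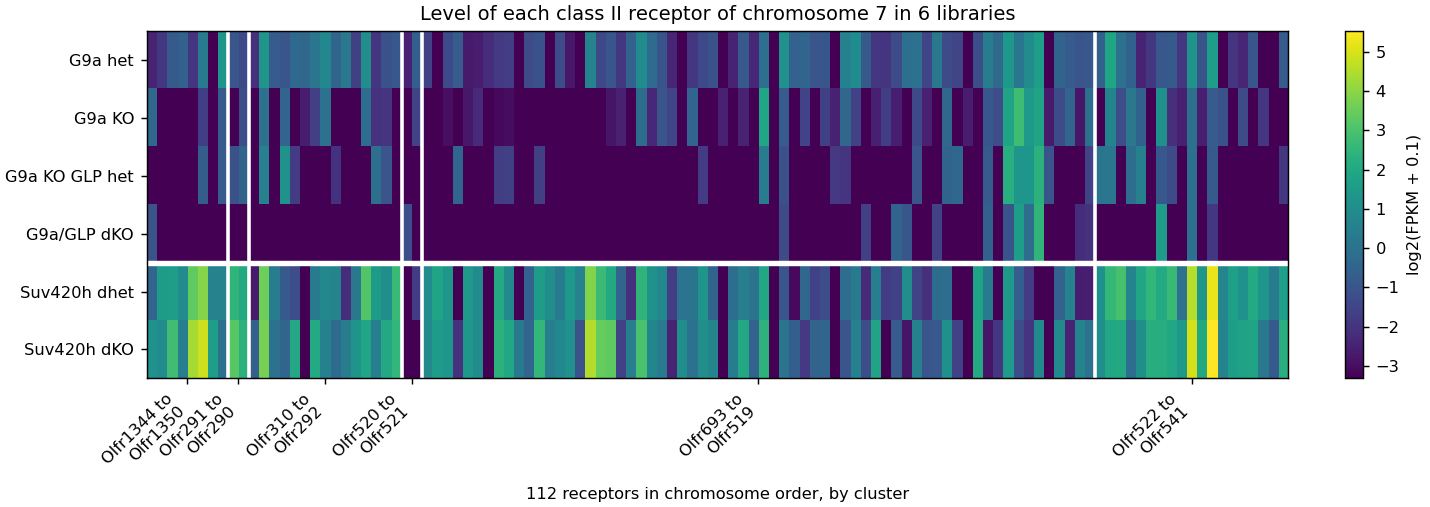
Each column is 1 of the 112 receptors in chromosome order, each row 1 library, and the colour is log2(FPKM + 0.1); white lines part the 6 clusters and the embryonic from the postnatal table. Most columns are at the bottom of the scale in the G9a/GLP double knockout, where 95 receptors are listed at 0. Olfr510, Olfr512 and Olfr513, near the right end of the largest cluster, and Olfr533, in the last cluster, are at 0.5 FPKM or more in all 4 embryonic libraries.

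Set against the G9a heterozygote, the G9a/GLP double knockout was lower by at least 2-fold in 35 of the 41 members that reached 0.5 FPKM in one of the libraries, and higher in 2. Over all 465 Olfr genes compared in the same way, 82.8% were lower and 10.5% higher. The ratios are on log2(FPKM + 0.1), which understates the difference of low receptors. The median log2 ratio was -2.90 for the members and -3.02 for all receptors compared. Of the 41, 29 were listed at 0 in the double knockout, where the added 0.1 sets the ratio, and among the 12 above 0 in both libraries the median was -1.03, with 2 higher and 6 lower. With the authors' confidence intervals also required not to overlap, 0 members were higher and 21 lower, against 4.3% and 53.8% of all receptors compared. No source used here gives the level of those intervals, and a receptor at 0 has an interval of 0 to 0. Such a receptor counts as apart wherever its lower bound in the G9a heterozygote is above 0. Of the lower members above 0 in the double knockout, only Olfr536 had intervals apart. Divided by the mature neuron markers, which moves the log2 ratios up by 1.04, 4 members were higher and 17 lower. No split over all Olfr genes is given for this scaling or for receptors above 0 in both libraries. For scale, 4.05% of 15079 other genes differed by at least 2-fold in either direction, on log2(FPKM + 1) and from 1 FPKM.

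The G9a knockout and the G9a KO GLP heterozygote libraries differed from the G9a heterozygote in the same way, with more members within 2-fold. The embryonic comparisons, 3 in number, use the same G9a heterozygote library, and a chance value of it enters each of them. In the G9a knockout, 28 of 47 members were lower and 6 higher, against 65.6% and 9.34% of the 471 receptors compared. In the G9a KO GLP heterozygote, 31 of 46 were lower and 5 higher, against 66.0% and 10.0% of 480. With the authors' intervals apart, 7 members were lower in the G9a knockout and 15 in the G9a KO GLP heterozygote, and 0 were higher in either. The same counts over all receptors compared were 19.3% lower and 0.849% higher in the G9a knockout and 35.2% lower and 1.46% higher in the G9a KO GLP heterozygote. Apart from Olfr536, the lower members with intervals apart were listed at 0 in the library set against the G9a heterozygote.

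The medians and the splits of these comparisons depended on the scaling. The median log2 ratio of the members was -1.24 in the G9a knockout and -2.19 in the G9a KO GLP heterozygote. Among members above 0 in both libraries it was -0.95 (36 members) and 0.36 (26 members). Divided by the mature neuron markers, which moves the log2 ratios up by 0.96 and 1.54, the split turned to 14 higher and 8 lower in the G9a knockout and to 18 higher and 11 lower in the G9a KO GLP heterozygote. This shift applies to every receptor, not to the members alone. Here too, no split over all Olfr genes is given for the scaling or for receptors above 0 in both libraries. Of genes other than receptors, 2.01% and 6.04% were at least 2-fold apart from the G9a heterozygote.

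**Figure D2:**
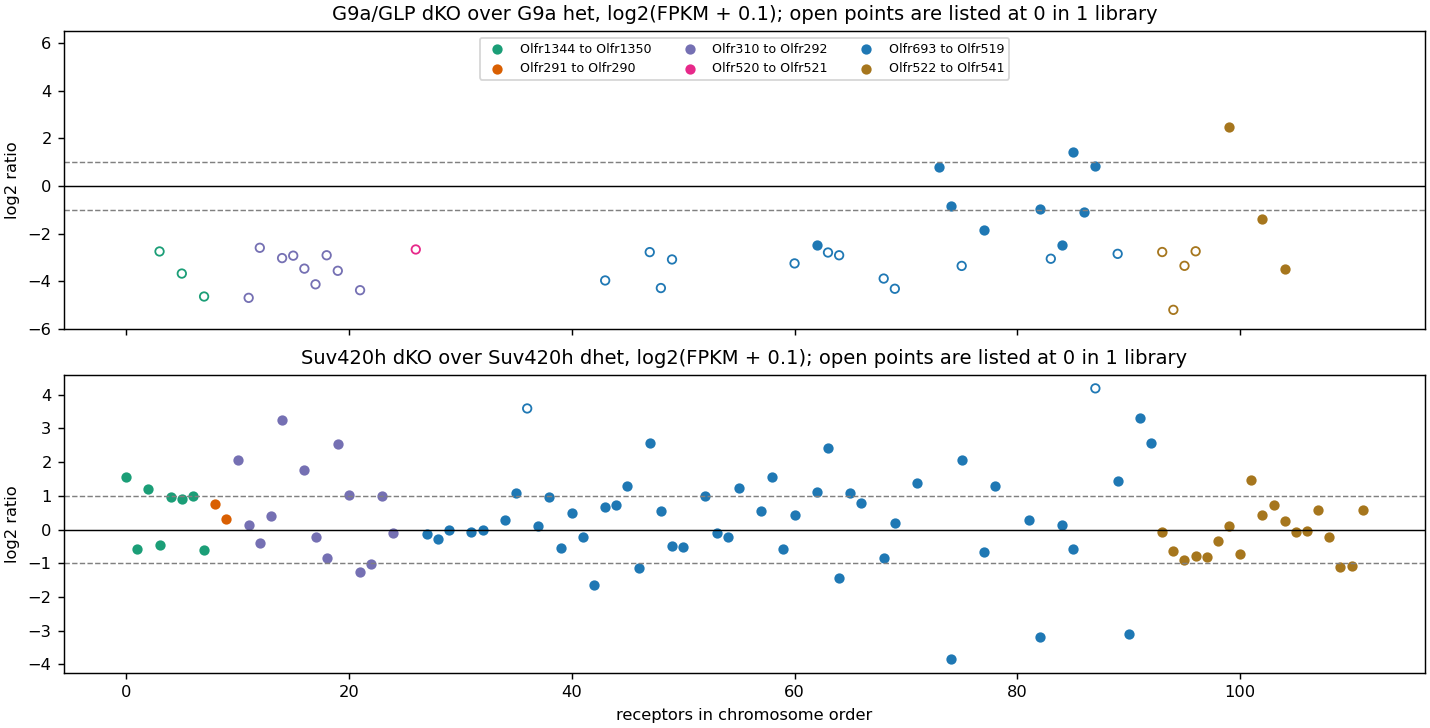
The upper panel gives the log2 ratio of the G9a/GLP double knockout over the G9a heterozygote and the lower one that of the Suv420h double knockout over the Suv420h double heterozygote, for each receptor that reached 0.5 FPKM in one of them, in chromosome order and coloured by cluster. Open points are listed at 0 in 1 of the libraries and are set by the added 0.1 FPKM, and dashed lines mark 2-fold; in the upper panel the points above 2-fold are Olfr510 and Olfr530.

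By cluster, the numbers listed at 0 in the double knockout stand against 82.4% of all Olfr genes and 84.8% of the 112. All 15 members from Olfr310 to Olfr292 were listed at 0 there, as were both members of the Olfr291 to Olfr290 cluster, all 24 from Olfr693 to Olfr716 and 7 of 8 from Olfr1344 to Olfr1350. In the Olfr522 to Olfr541 cluster 16 of 19 were, 30 of 42 from Olfr467 to Olfr519, and 1 of 2 from Olfr520 to Olfr521. These counts were not tested against each other. In the G9a heterozygote the Olfr310 to Olfr292 cluster had 9 of 15 members detected and held 1.96% of Olfr FPKM, and in the G9a knockout and the G9a KO GLP heterozygote it held 1.22% and 1.91%. Its highest member, Olfr309 (93454695 to 93455621), was at 2.47 FPKM in the G9a heterozygote, 0.878 in the G9a knockout, 1.36 in the G9a KO GLP heterozygote and 0 in the double knockout. Olfr295, of the same cluster, stood at 1.96, 0.812, 0 and 0 FPKM. Olfr307 was highest in the G9a KO GLP heterozygote, at 0.405, 0.638, 2.23 and 0 FPKM in the order above, with authors' intervals of 0 to 0.795 in the G9a heterozygote and 0.221 to 3.22 in the G9a KO GLP heterozygote, which overlap.

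The 24 receptors from Olfr693 to Olfr716 include those best known from mouse genetics. Olfr17 is P2, used in gene targeting to trace the axons of neurons with one receptor, and an enhancer next to it, the P element, is known to act on this group. Olfr17 (114240981 to 114241928) was at 1.84 FPKM in the G9a heterozygote, 0.768 in the G9a knockout and 0 in the G9a KO GLP heterozygote and the double knockout. Its neighbours Olfr713, Olfr714 and Olfr715 were at 0.173, 0.581 and 0.743 FPKM in the G9a heterozygote, and at 0.077, 0 and 0.096 in the G9a knockout. Olfr6 (M50; 114099498 to 114100448) was at 1.45 FPKM in the G9a heterozygote, with an interval of 0.175 to 2.58, and listed at 0 in the other 3 embryonic libraries. Olfr2 (I7), whose rat counterpart responds to octanal, was at 0.421, 0.041, 0 and 0 FPKM. At these levels only 4 of the 24 were detected in the G9a heterozygote, and the intervals of Olfr17 in the G9a heterozygote (0.219 to 3.25) and the G9a knockout (0.0439 to 1.49) overlap.

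In the last cluster, Olfr522 to Olfr541, 6 of 19 members were detected in the G9a heterozygote and 2 in the double knockout. Olfr523 (147362003 to 147362956) was the highest of the 112 in the G9a heterozygote at 3.55 FPKM, with 1.50 in the G9a knockout, 0.999 in the G9a KO GLP heterozygote and a listing at 0 in the double knockout. Olfr536 (147686752 to 147693217), the most abundant receptor after birth, was at 2.91 FPKM in the G9a heterozygote, 0.478 in the G9a knockout, 0.467 in the G9a KO GLP heterozygote and 0.172 in the double knockout. For Olfr536 the G9a heterozygote interval of 1.49 to 4.33 FPKM lay above those of the other 3, of which the highest bound was 0.831. Olfr533, its close relative (92.4% identical), was at 2.30, 0.856, 0.833 and 0.836 FPKM, with overlapping intervals.

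Olfr530 (147558584 to 147559507) went the other way. It was at 0.432 FPKM in the G9a heterozygote, 2.05 in the G9a knockout, 0.439 in the G9a KO GLP heterozygote and 2.86 in the double knockout, a log2 ratio of 2.47 for the double knockout over the G9a heterozygote. The G9a knockout and the double knockout were the high libraries. The authors' intervals of 0 to 0.855 in the G9a heterozygote and 0.315 to 4.05 in the double knockout overlap. Olfr530 shares 18.9% of its windows with Olfr533, so some reads may match both. How the authors' tools split such reads is not stated in these sources.

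A run of neighbours near the end of the largest cluster held much of what remained. Olfr509, Olfr510, Olfr512 and Olfr513 are consecutive among the 112 and span 110.2 kb (115789123 to 115899301). The run was picked after its values were seen. It held 12.3% of the FPKM of the 112 in the G9a heterozygote, 38.5% in the G9a knockout, 42.3% in the G9a KO GLP heterozygote and 56.9% in the double knockout, while after birth it held 1.11% and 1.31%. In summed FPKM it was at 8.35, 16.3, 14.5 and 9.52 in the embryonic libraries, so its sum was not lower than in the G9a heterozygote in any of the others.

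Within the run the members did not move together. Olfr513 was at 2.97 FPKM in the G9a heterozygote, 3.52 in the G9a knockout, 5.10 in the G9a KO GLP heterozygote and 5.37 in the double knockout, where it was the highest of the 112. Its intervals overlap throughout, from 0.76 to 5.05 in the G9a heterozygote to 1.74 to 8.94 in the double knockout. Olfr510 was at 1.02, 6.69, 2.41 and 2.97 FPKM, highest in the G9a knockout, with a log2 ratio over the G9a heterozygote of 2.60 there and 1.45 in the double knockout. Its intervals of 0.044 to 1.98 in the G9a heterozygote and 1.36 to 8.62 in the G9a knockout overlap. Olfr509 was at 2.55, 3.49, 4.58 and 0.378 FPKM, and Olfr512 at 1.81, 2.61, 2.41 and 0.796, so both were low in the double knockout alone. These receptors are not close copies: identity between members of the run was 37.3 to 50.2%, and none shared over 5.06% of its windows with other receptors.

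Receptors beside the run differed from it. Olfr508, before the run, was at 0.726 FPKM in the G9a heterozygote, 0.326 in the G9a knockout and 0 in the other 2 embryonic libraries. Olfr514 and Olfr516, after it, were at 0 and 0.616 FPKM in the G9a heterozygote, at 0.391 and 0 in the G9a KO GLP heterozygote, and both at 0 in the double knockout. Without the run, the 38 other receptors from Olfr467 to Olfr519 summed to 18.8, 10.8, 4.96 and 2.63 FPKM. In that group only Olfr493 (0.623 FPKM) and Olfr507 (0.576 FPKM) were detected in the double knockout.

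**Figure D3:**
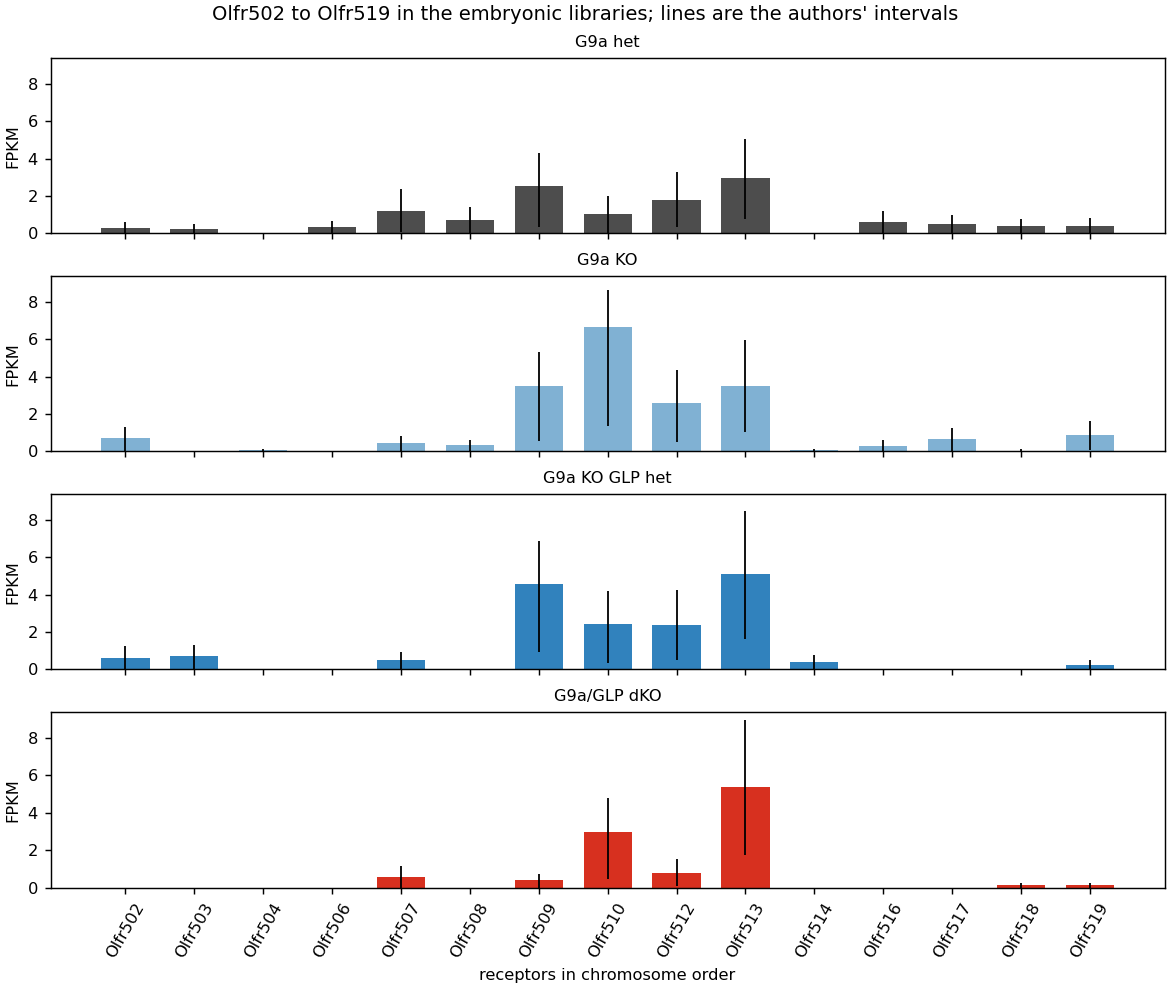
Bars give the FPKM of the receptors from Olfr502 to Olfr519 in chromosome order, 1 panel per embryonic library, and lines give the authors' confidence intervals. Olfr509, Olfr510, Olfr512 and Olfr513 stand above the other receptors plotted in the G9a knockout and G9a KO GLP heterozygote panels, in the G9a heterozygote panel Olfr507 (1.23 FPKM) exceeds Olfr510 (1.02 FPKM), and in the G9a/GLP double knockout panel Olfr510 (2.97 FPKM) and Olfr513 (5.37 FPKM) are the tallest.

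The 7 members detected in the double knockout were Olfr513, Olfr510, Olfr530, Olfr533 (0.836 FPKM), Olfr512, Olfr493 and Olfr507, of which 5 were also detected in the G9a heterozygote. They lie in the last 2 clusters. In 4 of the 112 the double knockout had the highest value of the embryonic libraries: Olfr513, Olfr530, Olfr493 and Olfr520, the last at 0.336 FPKM. The G9a heterozygote had the highest value for 69. Such counts over all Olfr genes are not given here, so neither number is particular to the members. Elsewhere in the G9a knockout, Olfr479 was at 3.65 FPKM against 0.846 in the G9a heterozygote (log2 ratio 1.99), and its intervals of 0.718 to 5.96 and 0.0423 to 1.65 overlap. Olfr527 was at 1.35 FPKM in the G9a KO GLP heterozygote against 0.0836 in the G9a heterozygote.

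**Figure D4:**
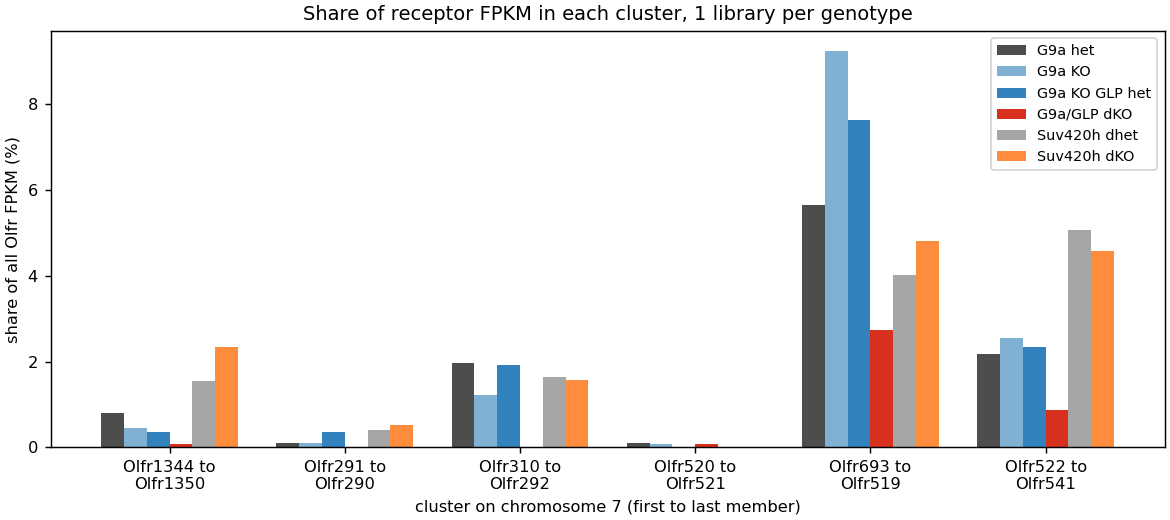
Bars give the share of all Olfr FPKM held by each of the 6 clusters, 1 bar per library, from 0. The Olfr693 to Olfr519 cluster held the largest share in each embryonic library, at 5.66, 9.24, 7.63 and 2.75%, whereas in the Suv420h double heterozygote library the Olfr522 to Olfr541 cluster did, at 5.06% against 4.02%, and in the Suv420h double knockout the Olfr693 to Olfr519 cluster was again the highest, at 4.82% against 4.57%.

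Genes known to act in receptor choice were mostly within 2-fold of the G9a heterozygote in the embryonic libraries, some of them lower by nearly that much. Of 25 such genes measured, 0 were at least 2-fold apart in the double knockout or the G9a knockout, and 1, Rtp1, was lower in the G9a KO GLP heterozygote. Lhx2, the homeodomain factor that binds receptor promoters and enhancers, was at 56.1, 50.2, 45.7 and 49.5 FPKM, and its cofactor Ldb1 at 65.7, 79.7, 75.1 and 82.7. Ebf1, of the olfactory and early B cell factors, was at 42.0, 27.9, 29.2 and 32.8 FPKM. Kdm1a (Lsd1), the demethylase needed to start receptor expression, was at 40.7, 46.7, 42.3 and 40.8 FPKM. Rtp1, a transporter that brings receptors to the membrane, was at 40.6, 26.8, 18.0 and 27.3 FPKM, in an order like that of the mature neuron markers, a list that also holds it. Rtp2, of the same family, was at 30.9, 17.6, 15.7 and 22.5 FPKM, Ebf2 at 38.8, 22.3, 24.5 and 26.9, and Adcy3, the adenylyl cyclase of olfactory signalling, at 21.1, 14.9, 11.6 and 14.6. Cbx3, a protein that binds methylated histone H3, was at 26.0, 26.1, 17.1 and 15.0 FPKM, lower in the G9a KO GLP heterozygote and the double knockout.

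At postnatal day 21 most of the 112 were detected, and the 2 libraries were alike in number. At 0.5 FPKM or more, 80 were detected in the Suv420h double heterozygote and 84 in the Suv420h double knockout, 70 of them in both, and 13 and 10 were listed at 0. Of the 112, 71.4 and 75.0% were thus detected and 11.6 and 8.93% listed at 0. Over all Olfr genes 73.4 and 73.6% were detected and 8.86 and 8.77% listed at 0. The summed level was 298 FPKM in the double heterozygote and 382 in the double knockout, or 1.41 and 1.70 relative to the mature neuron markers. The share of Olfr FPKM was 12.7 and 13.8%. The effective number was 48.1 and 45.4, and over all Olfr genes it was 581 and 551.

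The most abundant members came from several clusters, the first and last among them. Olfr536 was the highest of all receptors in both libraries, at 38.3 FPKM in the double heterozygote and 45.9 in the double knockout, followed among the 112 by Olfr533 at 23.1 and 31.1. Olfr1348 (6453997 to 6454935) stood at 15.0 and 28.5 FPKM and its neighbour Olfr1347 at 10.3 and 20.2. Those neighbours are 92.3% identical and Olfr1347 shares 48.0% of its windows, so their levels may not be independent. Olfr6 was at 14.3 and 22.8 FPKM, Olfr17 at 5.27 and 7.84, and Olfr309 at 11.8 and 13.1. All 19 members of the Olfr522 to Olfr541 cluster were detected in the double heterozygote. From Olfr693 to Olfr716, 20 of 24 were detected, and from Olfr467 to Olfr519 21 of 42, whereas in the G9a heterozygote embryonic library these counts were 4 and 16.

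The order of the receptors differed between the tables. Olfr513 ranked 14th among Olfr genes in the G9a heterozygote and 1020th in the Suv420h double heterozygote, where it was listed at 0. Olfr509 ranked 25th and 276th, and Olfr1348 142nd and 11th. Olfr536 was high in both, at rank 15 and rank 1. Across the 112, log2 levels in the G9a heterozygote and Suv420h double heterozygote had a Pearson r of 0.25 and a Spearman rho of 0.17, against an r of 0.44 for the class I cluster and 0.38 for receptors of other chromosomes. These describe single libraries that differ in age, genotype and table. Read within each table, Xist was at 0.242 FPKM in the G9a heterozygote and 120 in the Suv420h double heterozygote. Ddx3y was at 33.6 and 0 FPKM in the same libraries, so sex differed too. Between the postnatal libraries r was 0.80 and rho 0.81 across the 112.

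**Figure D5:**
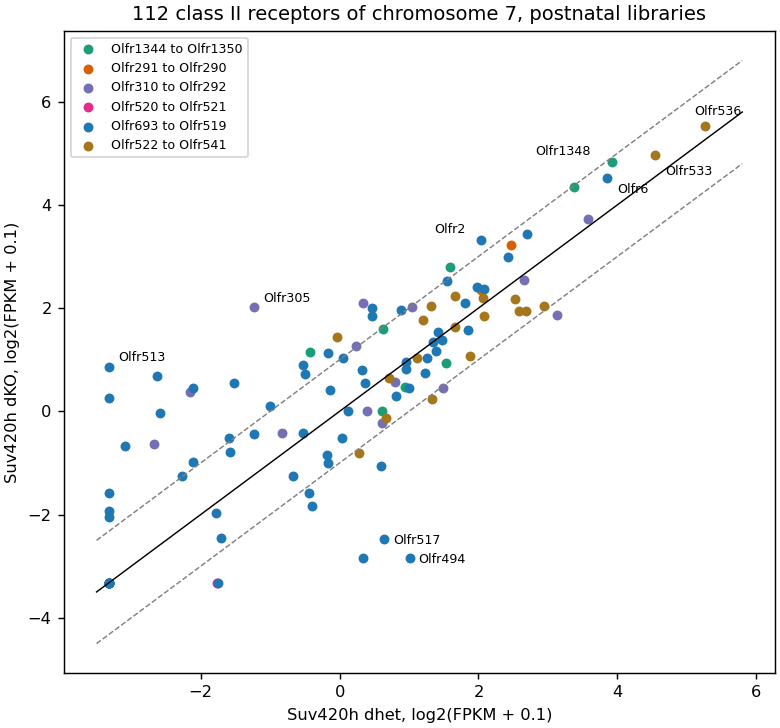
Each point is 1 of the 112 receptors, with log2(FPKM + 0.1) in the Suv420h double heterozygote on the x axis and in the Suv420h double knockout on the y axis, coloured by cluster. The solid line marks equal levels and the dashed lines 2-fold; abundant receptors such as Olfr536 and Olfr533 lie between the dashed lines, and most points outside them are low.

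Of 94 members that reached 0.5 FPKM in one of the postnatal libraries, 24 were at least 2-fold higher in the Suv420h double knockout, 10 lower and 60 within 2-fold. Over the 929 receptors compared, 19.3% were higher and 13.3% lower, and over 14331 other genes 2.75% were 2-fold apart. The median log2 ratio was 0.22 for the members and 0.16 for all receptors. In the Olfr522 to Olfr541 cluster 16 of 19 members were within 2-fold, with 1 higher and 2 lower, and its sum ratio was 1.06. In the Olfr1344 to Olfr1350 cluster the sum ratio was 1.78, and 2 of 8 members were higher and 0 lower. From Olfr467 to Olfr519, 12 of 29 compared were higher and 4 lower.

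In the authors' deposited table, 3 of the 90 members that the authors tested had a q under 0.05, against 2.11% of the 900 receptors tested, and all 3 were higher in the double knockout, as were 18 of the 19 receptors with such a q. That test compares 1 library with 1 library, and 22 members were not tested. Olfr305 (93511886 to 93512845) was at 0.325 FPKM in the double heterozygote and 3.94 in the double knockout, and the authors' deposited table gives it a q of 0.0035. Low postnatal values fell in steps of 1 fragment, on which scale Olfr305 had 5 fragments in the double heterozygote and 50 in the double knockout, or 0.105 to 0.758 and 2.92 to 5.19 FPKM as exact 95% Poisson intervals, which cover counting error only. Olfr1320, of chromosome X, is listed with exactly the same postnatal values as Olfr305. Olfr2 was at 4.01 and 9.87 FPKM (q of 0.0333 in the authors' deposited table), and for Olfr1348 the authors' deposited table gives a q of 0.0414.

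Other large ratios rested on few fragments. Olfr513 was listed at 0 in the double heterozygote and at 1.72 FPKM in the double knockout, from 21 fragments, and the authors' deposited table gives it a q of 0.0606. Olfr703 was likewise at 0 and 1.10 FPKM, from 14 fragments. Olfr518 was at 0.0617 and 1.50 FPKM, from 1 and 20 fragments. On the low side, Olfr517 was at 1.46 and 0.0803 FPKM, from 22 and 1 fragments. Olfr494 stood at 1.91 and 0.0401 FPKM and Olfr507 at 1.17 and 0.0398, both with a double knockout value below 1 fragment. Over the 98 members with an estimate the median was 17 fragments in each library, and the other 14, among them Olfr536 and Olfr2, have none, so a typical member is known only coarsely.

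Mature neuron markers were within 2-fold between the postnatal libraries, with a median log2 ratio of 0.05 over 17, and Omp was at 1124 and 1108 FPKM. The 25 genes of receptor choice had a median of 0.04, and 0 were 2-fold apart. Nqo1 and Acsm4, which mark the dorsal zone of the epithelium, were at 67.1 and 90.3 FPKM in the double heterozygote and 85.6 and 127 in the double knockout. Whether the share of dorsal tissue bears on the members was not tested.

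Promoter sequence was looked up for the members, since the regulators above bind there. The RefSeq table on GRCm38.p6 held 99 of the 112. For 77 the listed start is the first coding base, so the 250 bases before it are not upstream of transcription. For the other 22, with a start before the coding start, 9.09% held the palindrome CCCNNGGG of the Ebf factors, 36.4% held TAATGA and 9.09% TAATTA, letters of homeodomain sites, and 40.9% held TATAAA, on either strand and in 300 bases around the start. Over all 32851 promoters in the table these shares were 13.7, 9.78, 5.29 and 13.6%, and over the 240 promoters of other Olfr genes with a start before the coding start they were 7.5, 33.8, 19.2 and 33.8%. The members' shares for TAATGA and TATAAA are thus near those of other receptors. A match describes letters only, and the 4 motifs do not overlap in the promoters shown. Olfr711 and Olfr292, also among the 22, held no match and are not shown. Both were more abundant than Olfr701 in the Suv420h double heterozygote, at 6.42 and 6.18 FPKM. A pair is shown as the bases before the start, with matches in capitals: Olfr536, the most abundant receptor after birth (chr7:140507319-140507568, minus strand), and Olfr701, at 4.14 and 5.07 FPKM after birth (chr7:106813879-106814128, plus strand).
Olfr536: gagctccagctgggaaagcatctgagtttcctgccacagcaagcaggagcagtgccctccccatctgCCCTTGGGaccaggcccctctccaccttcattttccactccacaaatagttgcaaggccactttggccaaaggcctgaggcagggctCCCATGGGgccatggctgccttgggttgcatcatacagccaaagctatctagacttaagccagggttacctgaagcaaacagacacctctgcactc
Olfr701: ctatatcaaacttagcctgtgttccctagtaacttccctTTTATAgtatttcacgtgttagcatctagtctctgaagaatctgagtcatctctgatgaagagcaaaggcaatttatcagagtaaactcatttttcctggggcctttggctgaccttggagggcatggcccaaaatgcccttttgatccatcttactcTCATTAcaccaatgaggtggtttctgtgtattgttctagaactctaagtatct
In Olfr536 the Ebf palindromes begin 183 and 96 bases before the start, and in Olfr701 TATAAA lies 211 and TAATGA 53 bases before it, both on the opposite strand.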

How the data were processed

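RNA was measured in 6 libraries of olfactory epithelium, 1 per genotype, grouped by the labels. Libraries of polyadenylated RNA were made with ScriptSeq V2, per the labels' protocols. Reads were processed with TopHat, Cufflinks and Cuffdiff on mouse build mm9, per the submitters' processing notes. Versions, gene annotation, total depth and the treatment of reads with several matches: not given in the sources used here. Values deposited by the authors are FPKM per gene symbol, fragments scaled by transcript length and library size. Bounds of a confidence interval are in the embryonic table and p-values and q-values in the postnatal one, per the file headers. Loci are those of the deposited tables, written from 1.

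The members, gene lists and settings were chosen with earlier results of these data known. Ratios are on log2(FPKM + 0.1) for receptors that reached 0.5 FPKM in one of the libraries compared, and on log2(FPKM + 1) from 1 FPKM for other genes. No test was run, as no group had replicates. Named receptors were the 5 most abundant of each library; the 5 highest and 5 lowest ratios of the G9a/GLP double knockout and Suv420h double knockout comparisons (3 and 3 for the other comparisons); Olfr2, Olfr6, Olfr17 and the neighbours of Olfr17; the first and last of each cluster; neighbours within 100 kb of the highest member of each library; and close copies among these. Olfr503, Olfr504, Olfr701, Olfr711 and the run Olfr509 to Olfr513 as a unit were singled out after their values were seen.

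Fragment numbers were taken from the steps of low postnatal FPKM times length, with 150 bases taken off each span, a choice made after the data were examined: 78.6% of low values in the double heterozygote and 84.6% in the double knockout lay within 0.1 of a whole number. In the embryonic libraries 25.6 to 30.1% did, so no fragment numbers are given there and depth is unknown. Protein identity was computed with blastp 2.17.0 between translated longest reading frames of 200 residues or more, with 80% aligned. Shared windows are exact matches of 50 bases between those frames. How counting error in low receptors bears on the numbers of members higher and lower was not tested. Python 3.11.15, pandas 2.3.3 and numpy 2.4.6 were used. Alternatives were another pseudocount, other minimums, TPM, division by mature neuron markers, other reference libraries, the authors' intervals, and members without a close copy.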

Additional observations from a re-analysis of the deposited data

How the results depend on the processing

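No paired analysis was possible because each group had 1 library. Of 92 recomputed counts and shares, 43 stayed within 1.5 times the value reported, among them every share of Olfr FPKM and the number of clusters, and 49 did not. Of 432 recomputed ratios of named members, 8 changed sign; 3 of these were among the 288 whose reported ratio was at least 2-fold. Counts below are members higher and lower than the reference. Apart from the authors' intervals, no share over all Olfr genes is given for these settings.

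For the G9a/GLP double knockout against the G9a heterozygote (2 and 35), the counts were 1 and 15 with a pseudocount of 1, 4 and 81 with no minimum, 18 lower at a minimum of 1 FPKM, 4 and 17 divided by the mature neuron markers, 4 and 70 on the TPM scale, 1 higher without close copies, 0 and 21 with the authors' intervals apart, 1 and 17 against the G9a knockout, 15 lower against the G9a KO GLP heterozygote, and 6 lower among members above 0 in both libraries, a setting added after seeing the data. For the G9a knockout (6 and 28) they were 3 and 7 with a pseudocount of 1, 62 lower with no minimum, 3 and 15 at 1 FPKM, 14 and 8 by the markers, 10 and 59 as TPM, 0 and 7 with intervals apart, and 17 lower above 0 in both. For the G9a KO GLP heterozygote (5 and 31) they were 2 and 13, 65 lower, 3 and 16, 18 and 11, 54 lower, 0 and 15, and 11 lower, in the same order of settings. For the Suv420h double knockout (24 and 10) a pseudocount of 1 gave 9 and 4. TPM are 1.80 to 2.83 times FPKM, so more low members pass the same minimum there; a larger pseudocount by its construction shrinks the ratios of low members. Detected members at 1 FPKM and at 0.1 FPKM were 21 and 88 in the G9a heterozygote, 8 and 46 in the G9a knockout, 8 and 38 in the G9a KO GLP heterozygote, and 3 and 17 in the double knockout. Divided by the markers, the G9a KO GLP heterozygote log2 ratios of Olfr1348, Olfr507 and Olfr533 turned to 0.32, 0.19 and 0.0671. Depth limits the low members most: the fragments behind embryonic values are unknown, and with 1 library per genotype no difference between libraries can be set against biological spread.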

Other observations

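Some receptors had exactly equal values in both postnatal libraries. Olfr305 shared its 0.325 and 3.94 FPKM, and its q of 0.0035 in the authors' deposited table, with Olfr1320 of chromosome X. The loci of both span 960 bp and their proteins are 39.9% identical. In the embryonic table they differed, at 0.71 and 0.629 FPKM in the G9a heterozygote. Olfr473 and Olfr907 of chromosome 9 were likewise equal, at 0.605 and 1.55 FPKM, and Olfr472 and Olfr279 of chromosome 15, at 2.28 and 1.96. Whether equal fragment numbers over loci of equal length account for this was not tested.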
